A study of Xenopus laevis with 5 samples.

Results

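The FGF receptors were followed on microarrays of Xenopus laevis ectodermal explants in which zic1, a zinc-finger factor that acts in the neural plate and along its edge, was switched on. FGF receptors are receptor tyrosine kinases of the cell surface. An FGF ligand, held by heparan sulphate on the cell surface and matrix, brings receptors together, and the activated receptor signals through adaptor proteins to Ras and the MAP kinase ERK. In the frog gastrula this pathway is known for its part in mesoderm formation, in gastrulation movements and, with BMP inhibition, in neural induction. The receptors were chosen by gene symbol (fgfr1, fgfr2, fgfr3, fgfr4 and fgfrl1, with any copy suffix) among probe sets with a single symbol in the platform annotation, and 7 of 15572 probe sets met that rule. They stand for 5 gene copies: fgfr1.L (1 probe set), fgfr2.L (2), fgfr3.S (1), fgfr4.L (2) and fgfr4.S (1). This frog is allotetraploid and carries most genes as a pair of copies, written .L and .S, which can share signal on short probes. No probe set carried the symbol fgfrl1, fgfr1.S, fgfr2.S or fgfr3.L.

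The study had 2 arrays of explants with zic1 and 3 of control explants. Embryos received, at the stage of 2 cells, a zic1 whose activity depends on hormone, or beta globin in the controls, and noggin in both groups. Noggin inhibits BMP signals and makes ectoderm neural, and the labels call the explants of both groups neuralized, a state that these ratios cannot check. Explants were cut at stage 9 and grown to the equivalent of stage 12, when cycloheximide was added for 30 min to stop protein synthesis. Dexamethasone, the hormone that activates the injected zic1, followed in both groups, and the explants were taken 3 h later. The comparison is aimed at transcripts that respond to zic1 without newly made protein. No group went without the hormone or without cycloheximide. A difference that arose before the hormone, or that needed newly made protein, therefore cannot be told apart from such a response. The labels call the arrays biological replicates and do not say how many explants, clutches or days they came from, so the spread between arrays may be technical in part.

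Each deposited value is a ratio to the same probe set's median over the 5 arrays, so 1 is that median. The ratios keep no absolute signal, so receptors cannot be ordered by level, and neither the absence of a marker nor the number of a probe set's transcripts can be read from them. Precision is limited by how few arrays there are. Zic1 itself was higher in the zic1 explants, with a zic1.S probe set at 5.28 and 5.07 there against 1.00, 0.965 and 0.699 in control explants, and a second at 1.68 and 1.76 against 1.00, 0.907 and 0.815. Nog.L, of the noggin given to both groups, read 0.848 and 1.26 against 0.803, 1.00 and 1.06, with overlap. Over all 15490 probe sets tested, 170 were higher and 49 lower at an adjusted p under 0.05 (limma, Benjamini-Hochberg), 1.41% in all. Those counts depended on which arrays were included. A fit without either zic1 array has a single zic1 array left, and no calls are read from it. Leaving out control 1 gave 21, control 2 gave 5 and control 3 gave 207, of which 99 were among the 219. A set of arrays also stood apart by exactly equal values. Zic1 replicate 1 and controls 1 and 2 shared 788 to 944 equal values pair by pair, against 35 to 73 in all other pairs. Most of these shared values were 1, the median itself. Apart from 1, controls 1 and 2 shared 96 values, and zic1 replicate 1 shared 26 and 8 with them against 31 with zic1 replicate 2, so the grouping rests on values of 1, whose origin is not given in the sources used here. Differences are therefore also given within that set and within the set left over, zic1 replicate 2 and control 3. This last pair shared 43 equal values, no more than unjoined arrays did, and forms a set only by being left over.

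On the ratios as deposited, fgfr2.L was the receptor with the largest difference, in both of its probe sets. Fgfr2 encodes a receptor with epithelial and mesenchymal splice forms in mammals. Its higher values with zic1 are the reason the receptors were chosen, so the values of all receptors are a description, and no test is given for them. The first fgfr2.L probe set (the probe set with the larger moderated t) read 2.08 and 1.97 with zic1, against 1.00, 0.801 and 0.958 in control explants. The second read 2.15 and 1.81 against 1.00, 0.810 and 0.767. In both probe sets the zic1 arrays lay above all controls with a wide gap. The lower zic1 array was 1.97 times the highest control in the first and 1.81 times in the second, while the highest control was 1.25 and 1.30 times the lowest. The log2 difference, zic1 minus control, was 1.14 ± 0.12 (SE, 2 against 3 arrays) and 1.21 ± 0.15, or 2.21-fold and 2.31-fold.

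The differences of fgfr2.L were close in both sets of arrays. Within the set of zic1 replicate 1 they were 1.22 for the first probe set and 1.26 for the second, and within the set of zic1 replicate 2 they were 1.04 and 1.24. With single arrays left out they ran from 1.05 to 1.21 and from 1.08 to 1.33. Cyclic loess of the ratios reduced them to 0.06 and 0.47. That step fits a trend against the average log2 ratio over the arrays, since no signal level is kept. A probe set high only with zic1 has a high average, so the step can itself remove such a difference. Its result therefore cannot decide whether the difference holds. After the same step fgfr1.L stood at 0.80, above both fgfr2.L probe sets, and fgfr4.S at 0.44. The cause was not tested. By size of difference the first probe set ranked 140 and the second 117 of 15490, counted from the highest.

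**Figure D1:**
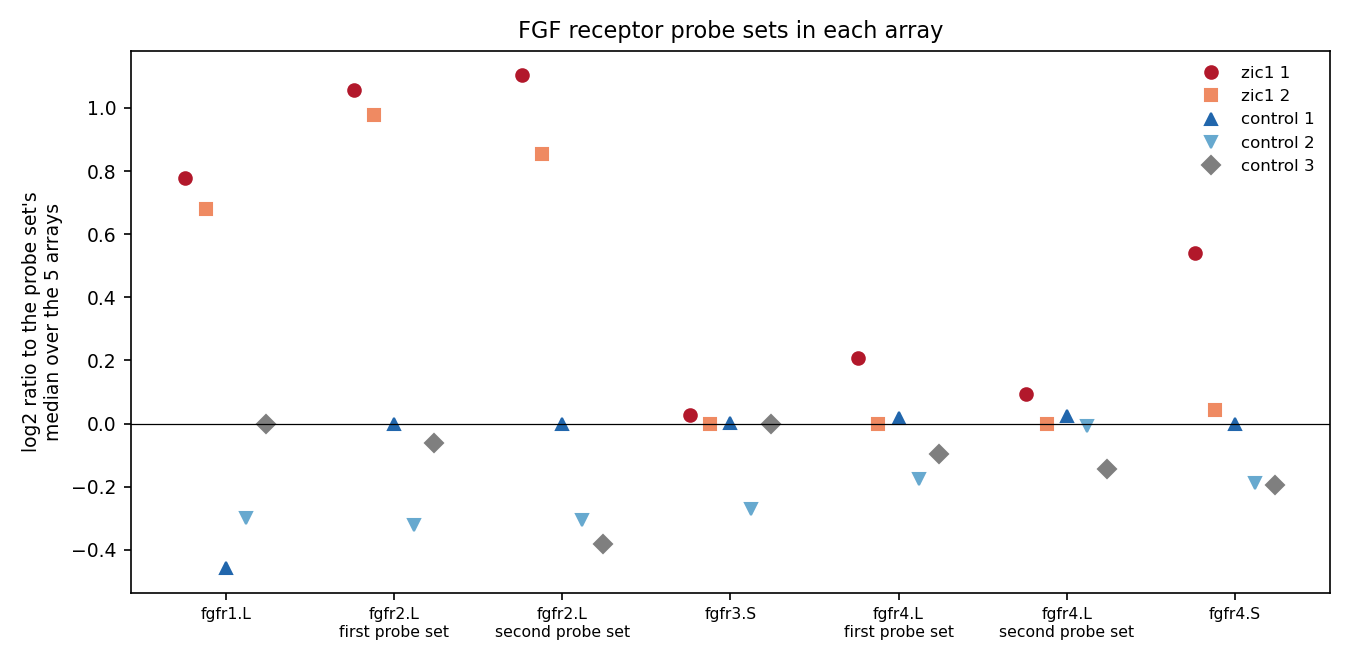
The log2 ratio of each FGF receptor probe set (y axis, relative to its median over the 5 arrays) is plotted for each array, with zic1 arrays in red and orange and controls in blue and grey. In both fgfr2.L probe sets and in fgfr1.L the zic1 arrays stand well above the controls, while those of fgfr3.S and fgfr4.L mix with them.

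Fgfr1.L was next. Fgfr1 encodes the FGF receptor best known from early frog development, where its dominant-negative form blocks mesoderm formation. Its probe set read 1.71 and 1.60 with zic1, against 0.728, 0.812 and 1.00 in control explants, without overlap. The lower zic1 array was 1.60 times the highest control. The log2 difference was 0.98 ± 0.15, or 1.97-fold, and it was 1.16 within the set of zic1 replicate 1 and 0.68 within the set of zic1 replicate 2. In fgfr1.L control 3 was the highest control, where in fgfr2.L it was control 1.

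The copies of fgfr4, a receptor of the same family, read closer to the controls. Fgfr4.S read 1.45 and 1.03 with zic1, against 1.00, 0.877 and 0.874 in control explants, so that the groups did not overlap but zic1 replicate 2 stood only 1.03 times above the highest control. Its log2 difference of 0.42 ± 0.17 was 0.17 without zic1 replicate 1 and was 0.67 without zic1 replicate 2. The first fgfr4.L probe set read 1.15 and 1.00 against 1.01, 0.885 and 0.936, and the second read 1.07 and 1.00 against 1.02, 0.994 and 0.906. In both the groups overlapped, and the log2 differences were 0.19 ± 0.10 and 0.09 ± 0.09. The probes that tell the copies apart are not given in the sources used here.

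Fgfr3.S also stood close to the controls. Fgfr3 encodes a receptor that restrains growth of cartilage in mammals. Fgfr3.S read 1.02 and 0.999 with zic1, against 1.00, 0.829 and 1.00 in control explants. Only control 2 stood apart, and the groups overlapped. The log2 difference was 0.10 ± 0.11, and within the sets of arrays it was 0.16 and -0.0014.

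In 4 of the 7 receptor probe sets both zic1 arrays lay above all controls, against 19.9% of all probe sets. Both fgfr2.L probe sets are among the 4, and since that contrast chose the receptors, nothing is read from the count. All 7 differences were positive, with a median of 0.42 on the log2 scale where the median over all probe sets was -0.00021. In all 7 zic1 replicate 1 was the highest of the 5 arrays, against 22.2% of all probe sets. Both fgfr2.L probe sets enter these values as well, so nothing is read from them either. The probe sets are not independent of each other, since fgfr2.L and fgfr4.L each gave 2.

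**Figure D2:**
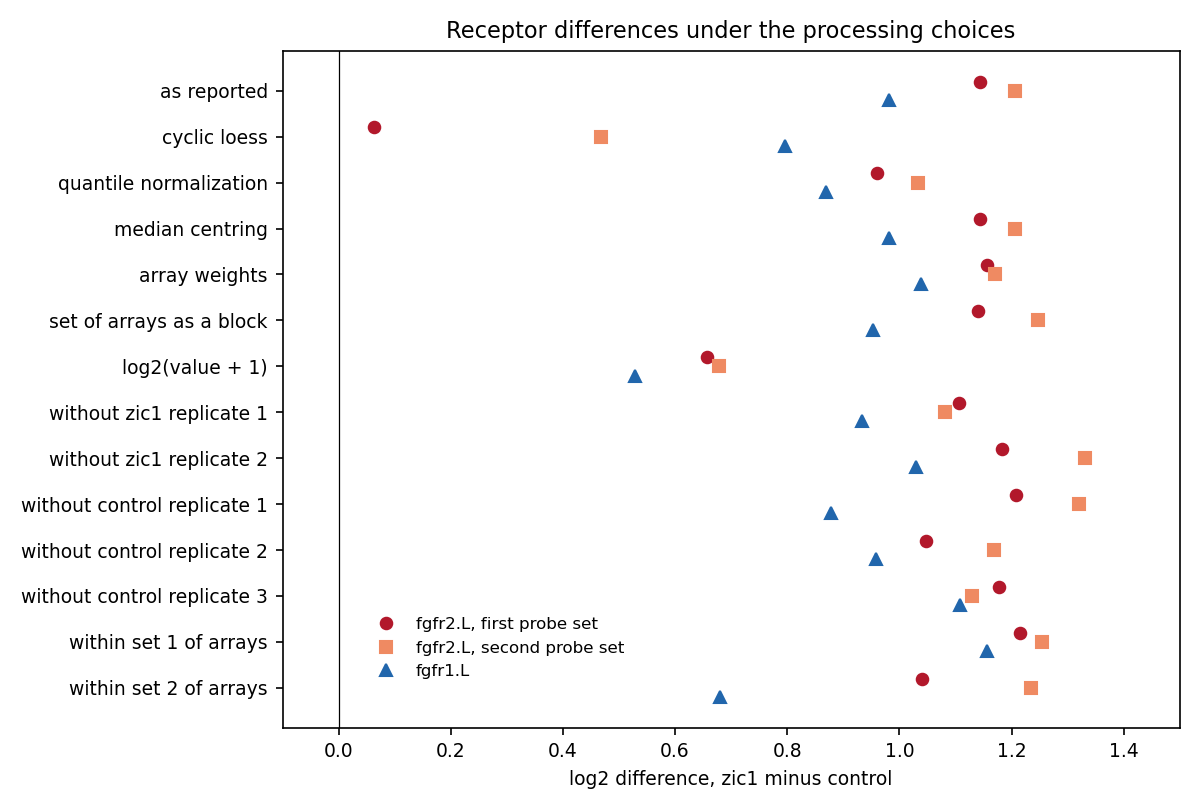
The log2 difference, zic1 minus control (x axis), of fgfr2.L and fgfr1.L is shown under processing choices (y axis), with the value as reported at the top. The block by replicate number, the robust prior and no moderation are not shown. Set 1 holds zic1 replicate 1 and controls 1 and 2, and set 2 holds zic1 replicate 2 and control 3. All points lie above 0, and the lowest is the first fgfr2.L probe set after cyclic loess, at 0.06.

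Genes whose profile over the arrays was most like that of fgfr2.L were found by the root mean square difference of log2 ratios over the 5 arrays from its first probe set, among 9005 probe sets with an informative symbol. The nearest was chrng.L, a subunit of the acetylcholine receptor of muscle, at 0.042. It read 2.05 and 1.93 with zic1, against 0.972, 0.777 and 1.00 in control explants. Next came cldn5.S, of the tight junctions (0.062), dnmt1.S, the maintenance DNA methyltransferase (0.080), ankrd11.L, an ankyrin-repeat regulator of chromatin (0.086), and il17ra.S, a receptor for interleukin 17 (0.090). The same 5 were nearest by the largest gap on any array. The second fgfr2.L probe set lay at 0.16 from the first, with 27 of the 9005 nearer, and fgfr1.L at 0.28, with 90 nearer. With 5 arrays in 2 groups, any probe set near fgfr2.L also has a similar difference between the groups.

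**Figure D3:**
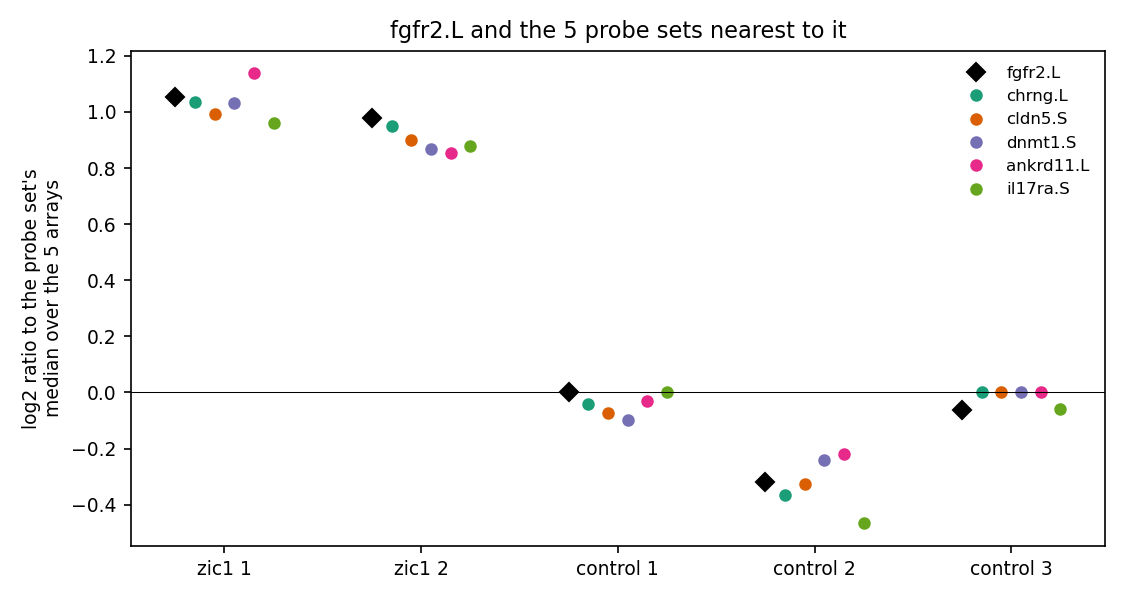
The log2 ratio (y axis) of the first fgfr2.L probe set (black diamonds) and of the 5 named probe sets nearest to it (coloured circles) is plotted for each array (x axis). In every control array all 6 lie at or below 0. The centring on the median fixes this once both zic1 arrays lie above all controls. Control 2 is the lowest array for each of the 6.

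Genes that act with the receptors were counted by their role, over 97 probe sets of 59 genes out of 129 listed. In the fit over all probe sets 5 of the 97 rose and 0 fell (limma, adjusted p under 0.05; at an unadjusted p under 0.05, 18 were higher and 5 lower), where 1.41% of all probe sets passed in either direction. At an unadjusted p under 0.05, 1647 of all 15490 probe sets were higher and 1591 lower. Their median log2 difference was 0.02. Of the 5, 3 belong to the list of targets, which was drawn up with the rise of myod1 and sall1 known and is not independent evidence. Over the other lists 2 of 68 rose. In single lists this short, a count of 0 or 1 says little next to the share over all probe sets. The count of 5 became 2 in limma when control 1 was left out, 1 for control 2 and 3 for control 3. Of those last 3, 2 were among the 5.

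Of the FGF ligands, 0 of 11 probe sets passed in limma (2 were higher and 0 lower at an unadjusted p under 0.05), and the median was 0.0041. The 2 were of fgf8.L, a ligand of the midbrain-hindbrain boundary and the gastrula margin. The first fgf8.L probe set read 1.51 and 1.48 with zic1, against 1.00, 0.781 and 0.815 in control explants. The log2 difference of 0.80 ± 0.13 did not pass (adjusted p = 0.0574, limma). A second differed by 0.60 ± 0.11 (adjusted p = 0.0666, limma), without overlap of the groups in either, and the third by 0.07 with overlap. Fgf20.L differed by 0.16 and fgf10.S by -0.10. Both copies of fgf4, the ligand of the early frog mesoderm long called eFGF, were at -0.06 (fgf4.L) and 0.0041 (fgf4.S), and fgf3.L was at -0.05.

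Among heparan sulphate proteins and the enzymes that make or trim their chains, 1 of 23 rose and 0 fell (limma; 6 were higher and 2 lower at an unadjusted p under 0.05), with a median of 0.02. It was sdc4.S, a syndecan, which carries heparan sulphate at the cell surface. Sdc4.S read 1.53 and 1.43 with zic1, against 0.950, 0.941 and 1.00 in control explants. The log2 difference was 0.62 ± 0.08 (adjusted p = 0.0396, limma). Its copy sdc4.L differed by 0.44, 0.45 and 0.28 in its probe sets, none of them past the threshold. The glypican gpc4.L, another carrier of heparan sulphate, read 2.01 and 1.69 against 1.00, 0.831 and 0.727. That difference of 1.12 ± 0.16 did not pass (adjusted p = 0.0510, limma), and a second gpc4.L probe set differed by 0.38. Sulf2.L, a sulphatase that trims the chains, differed by 0.34 and, in another probe set, by -0.17. Ext1.S, which polymerizes the chains, differed by -0.79 ± 0.20 (adjusted p = 0.112, limma). Its other probe set stood at 0.19.

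Among adaptors and kinases next to the receptor, 1 of 24 rose and 0 fell (limma; 1 was higher and 2 lower at an unadjusted p under 0.05), with a median of -0.04. It was fyn.S, a kinase of the Src family, which read 2.28 and 1.78 with zic1, against 1.00, 0.776 and 0.921 in control explants. The log2 difference was 1.17 ± 0.16 (adjusted p = 0.0464, limma), while fyn.L differed by 0.05. The adaptor crk.L read lower in both zic1 arrays, at 0.757 and 0.786 against 1.07, 1.06 and 1.00, and did not pass (adjusted p = 0.0651, limma). The adaptor grb2.L, which brings the Ras activator Sos to the receptor, differed by -0.35, and its copy grb2.S by -0.0093. Frs2.L, the docking protein of FGF receptors, differed by -0.21 and -0.04, plcg1.S, a phospholipase bound by the receptor, by -0.31, and pik3r1.S by -0.33.

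In the Ras and MAP kinase list 0 of 6 passed in limma (1 was higher and 0 lower at an unadjusted p under 0.05), with mras.L at 0.32, nras.L at -0.34, rps6ka3.L at -0.16 and araf.L at 0.11. In the list of inhibitors 0 of 4 passed in limma (also 0 at an unadjusted p under 0.05). Dusp6 and spry2 are themselves induced by FGF signals. With protein synthesis stopped by cycloheximide, they cannot report receptor protein made after the hormone. Dusp6.L, the ERK phosphatase, read 0.929 and 1.00 with zic1, against 1.34, 1.38 and 0.699 in control explants. Its controls spanned a wider range than the groups differed (-0.18 ± 0.32), and the difference was -0.55 within the set of zic1 replicate 1 and 0.52 within that of zic1 replicate 2. Spry2.L differed by -0.15 ± 0.18, spry2.S by -0.05 ± 0.13 and cbl.L, a ubiquitin ligase that removes receptors from the surface, by 0.29 ± 0.17.

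Of the targets, 3 of 29 rose and 0 fell (limma; 8 were higher and 1 lower at an unadjusted p under 0.05), with a median of 0.12. They were both copies of myod1, the muscle determination factor, and sall1.L, a zinc-finger factor. In the same fit 170 of all 15490 probe sets rose and 49 fell (limma; 1647 higher and 1591 lower at an unadjusted p under 0.05). The list was drawn up with the rise of myod1 and sall1 known. Myod1.S read 5.49 and 6.49 with zic1, against 0.699, 0.791 and 1.00 in control explants. The log2 difference was 2.86 ± 0.18 (adjusted p = 0.0129, limma). Myod1.L differed by 1.67 ± 0.21 (adjusted p = 0.0396, limma). A sall1.L probe set differed by 1.93 ± 0.08 (adjusted p = 0.00626, limma), but its other probe sets differed by 0.44 and 0.09. After cyclic loess myod1.S was at -0.0058 and this sall1.L probe set at -0.45. Genes known to follow ERK activity closely did not pass. Etv4.L, an Ets factor, differed by -0.0022 and etv1.S by -0.10. Egr1.L differed by -0.39 ± 0.19 and ier2.S by -0.45 ± 0.13 (adjusted p = 0.133, limma). Cycloheximide was added before the hormone to stop protein synthesis, so these genes cannot report receptor protein made after the hormone. Tbxt.S, brachyury, the mesodermal target of FGF in the frog, differed by 0.15 ± 0.12. Hes1.S differed by 1.39 ± 0.21 (adjusted p = 0.0512, limma), against 0.04 for hes1.L. A cdx1.S probe set differed by 1.01 (adjusted p = 0.0911, limma), while another differed by 0.19 with overlap. Ets1.L differed by 0.45 in the probe set with the largest t.

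Most of these calls were lost when a single control was left out. Over all probe sets the count of 219 became 21, 5 and 207 without controls 1, 2 and 3. The differences changed less: without single controls they ran from 0.60 to 0.65 for sdc4.S and from 1.07 to 1.25 for fyn.S. For myod1.L they ran from 1.60 to 1.80. Sdc4.S, fyn.S and myod1.L fell short without each control in turn (limma adjusted p from 0.0518 to 0.143 for sdc4.S, 0.0695 to 0.143 for fyn.S and 0.0518 to 0.149 for myod1.L). Myod1.S fell short without control 2 (0.113, limma), and sall1.L kept its call without each control (0.0244 to 0.0472, limma). Fits without either zic1 array have a single zic1 array left, and no call is read from them. With the array set as a block, sdc4.S (adjusted p = 0.0894, limma) and fyn.S (0.0945) also fell short. After cyclic loess 0 of all probe sets passed, these 5 included (limma; 20 of the 97 at an unadjusted p under 0.05).

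**Figure D4:**
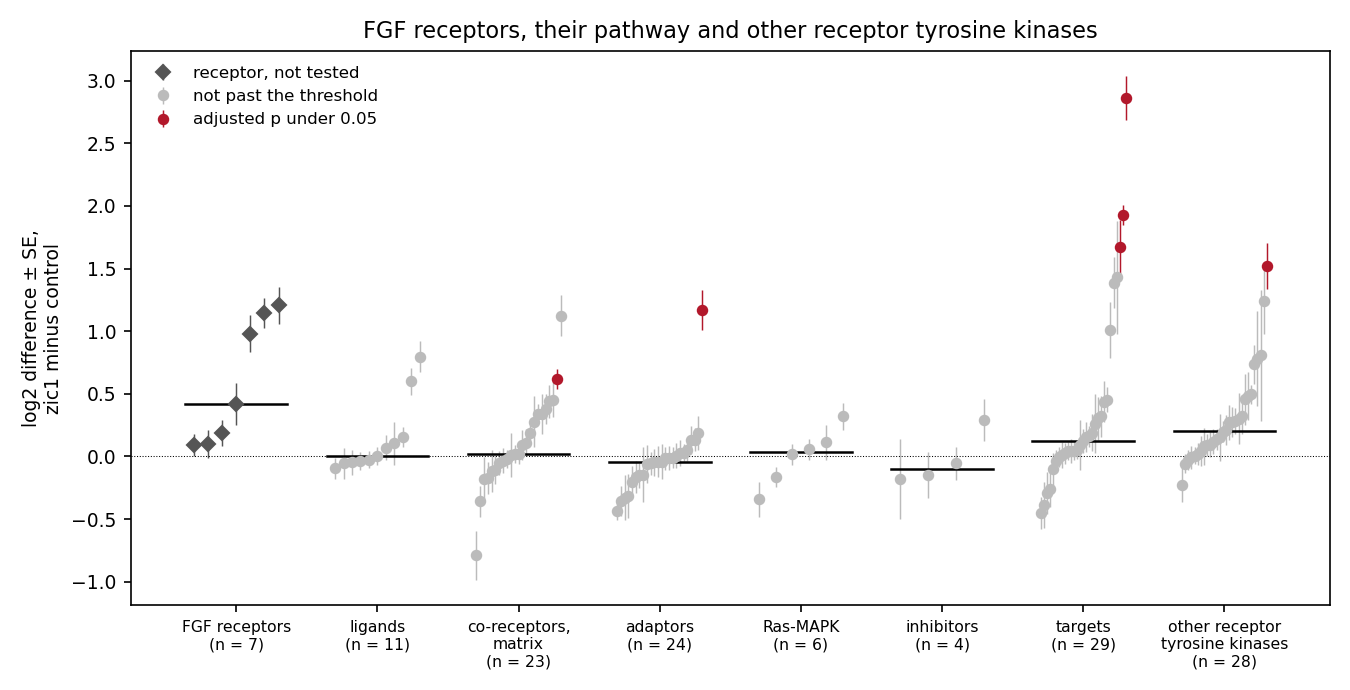
The log2 difference ± SE, zic1 minus control (y axis), is shown for every probe set of the FGF receptors, the pathway lists and other receptor tyrosine kinases, with list medians as black lines and probe sets past an adjusted p of 0.05 in red. The receptors (diamonds) carry no test, and the red points are sdc4.S, fyn.S, both copies of myod1, sall1.L and tek.S.

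Other receptor tyrosine kinases were counted the same way, Eph receptors left out. Of 28 probe sets of 16 genes, 1 rose and 0 fell (limma; 6 were higher and 0 lower at an unadjusted p under 0.05), with a median of 0.20. It was tek.S, the angiopoietin receptor, which read 2.56 and 2.27 with zic1, against 0.670, 0.886 and 1.00 in control explants. The log2 difference was 1.52 ± 0.19 (adjusted p = 0.0395, limma). The call was lost without control 1 or control 2, and with the array set as a block (adjusted p = 0.0894, limma). It was also lost after cyclic loess, which left a difference of 0.33 (adjusted p = 0.418, limma), after quantile normalization (0.0570) and without moderation (0.302). Cyclic loess and no moderation made 0 calls over all probe sets, so those losses are not particular to tek.S. In 13 of the 28 both zic1 arrays lay above all controls, against 19.9% of all probe sets. Ddr1.L, a collagen receptor, differed by 1.24 ± 0.27 (adjusted p = 0.0874, limma). Pdgfra.L, the PDGF receptor of gastrula mesoderm, differed by 0.73 and 0.50 in its probe sets, neither past the threshold. The last 2 genes were named after their values were seen.

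Some lists of cell type markers differed between the same groups. In explants, more cells of a type and more RNA per cell cannot be told apart. Mesoderm and muscle markers averaged 0.56 and 0.72 (log2 ratio) with zic1, against -0.18, -0.16 and 0.0050 in control explants, and 5 of 18 probe sets rose and 0 fell (limma; 9 were higher and 0 lower at an unadjusted p under 0.05). In the same fit 170 of all 15490 probe sets rose and 49 fell (limma; 1647 higher and 1591 lower at an unadjusted p under 0.05). The 5 marker calls became 1 in limma when control 1 was left out, 0 for control 2 (9 unadjusted) and 4 for control 3. After cyclic loess and without moderation they were 0, as over all probe sets (limma; 4 and 8 unadjusted). The 5 were both copies of myod1, vegt.L, which specifies germ layers (2.49), foxf1.L, of lateral mesoderm (1.73), and wnt8a.L (1.04). Both myod1 copies were already counted among the targets, and the marker lists too were chosen with earlier results known. Of the 18 differences 15 were positive, with a median of 0.40. Muscle actin acta1.S differed by -0.07. Neural plate markers averaged 0.27 and 0.21 against -0.04, -0.14 and -0.18, with 0 of 13 past the threshold in limma (7 were higher and 0 lower at an unadjusted p under 0.05). All 13 differences were positive, with a median of 0.29. In 10 of these 13, and in 10 of the 18 mesoderm and muscle probe sets, both zic1 arrays lay above all controls. Over all probe sets that share was 19.9%. The markers of epidermis, endoderm and cement gland had 0 past the threshold of 18, 17 and 9 (limma; 2, 1 and 2 were higher and 3, 2 and 1 lower at an unadjusted p under 0.05). Epidermal markers averaged -0.36 and 0.0014 in the zic1 arrays and -0.21 to 0.29 in the controls. Endoderm markers stood at 0.63 in control 3 against -0.31 to -0.04 in all other arrays, and cement gland markers at 0.67 in control 2 against -0.19 to 0.04. Both zic1 arrays lay below all controls in 5 of 18 epidermal, 6 of 17 endoderm and 1 of 9 cement gland probe sets. They lay above all controls in 2, 1 and 3 of them. Those 2 were both of epas1.L, while epas1.S lay below all controls, and those 3 were all of otx2. Over all 15490 probe sets 3012 lay below and 3078 above. Otx2 stands in both the neural plate and the cement gland lists. The part of these cell types in the receptor values was not tested.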

How the data were processed

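The authors deposited 1 table of linear ratios from 5 Affymetrix arrays; per the labels' protocols biotin-labelled cRNA was made from 2 µg total RNA by the one-cycle method. Per the submitters' processing notes GCOS and RMA were used, without versions or order. That each ratio is relative to its probe set's median was found in the deposited values: it was exactly 1 in all 15571 complete probe sets. After removal of 81 control probe sets and 1 incomplete probe set, 15490 were tested. Of 15491 probe sets without controls, 9304 had 1 symbol, 195 several and 5992 none here; all 7 receptor symbols equalled those of the gene table.

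Log2 ratios were fitted with limma 3.58.1 in R 4.3.3 (lmFit, eBayes; 3 residual and 2.29 prior degrees of freedom), zic1 minus control, with Benjamini-Hochberg adjustment and a threshold of 0.05. The SE is limma's moderated one. The fit was tested on simulated data of independent values. These held no array sets and no centring on a median, so that check says nothing about either. Receptors, lists and tests were chosen with earlier results of these data known. Named were all receptor probe sets, every pathway or receptor kinase probe set past the threshold, up to 4 others per pathway list by moderated t, the 5 profiles nearest to fgfr2.L, and the injected genes; other named genes were chosen after their values were seen. Alternatives were cyclic loess, quantile normalization, median centring, array weights, blocks by replicate number or array set, a robust prior, no moderation, log2(value + 1), an adjusted p under 0.10 and each array left out. Plots used matplotlib 3.10.9 in Python 3.11.15.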

Additional observations from a re-analysis of the deposited data

Results flagged for a closer look

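A probe set outside the receptor comparison, because the annotation gives it the symbols xfgfra2 and fgfr1-a together, was higher in the zic1 arrays than in the controls. It read 1.45 and 1.36 against 1.00, 0.803 and 0.747, a log2 difference of 0.73 ± 0.14, which was 0.69 and 0.86 within the sets of arrays. With more than 1 symbol it was assigned to no gene.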

How the results depend on the processing

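Of the 2 fgfr2.L probe sets, the first moved from 1.14 to 0.0624 after cyclic loess, 0.96 after quantile normalization and 0.66 with log2(value + 1), which compresses ratios; the second moved from 1.21 to 0.47 after cyclic loess and 0.68 with log2(value + 1). Cyclic loess is fitted here against the average log2 ratio and can itself remove a difference of probe sets high only with zic1. The robust prior and no moderation alter only the variance and cannot move a difference, and median centring left both fgfr2.L differences where they were. The remaining alternatives moved them by less than the spread between replicates. The count over all probe sets, 219, became 0 after cyclic loess (3331 at an unadjusted p under 0.05) and without moderation (2096), 109 after quantile normalization, 935 with array weights, 37 with the array set as a block and 1054 past an adjusted p of 0.10. It was 5 to 207 with single controls left out (limma). The 5 pathway calls became 0 after cyclic loess (20 unadjusted) and without moderation (15), 2 after quantile normalization and 12 with array weights. They became 3 with the array set as a block, 8 with log2(value + 1), 12 past an adjusted p of 0.10, and 1 to 3 with single controls left out. The cause was not tested. The groups share replicate numbers 1 and 2, but no label ties same-numbered arrays. Deviations of same-numbered arrays from their group means correlated at 0.32 and 0.284 over probe sets. With 2 zic1 arrays these deviations mirror each other, and zic1 replicate 1 gave -0.284 with control 2. The values are therefore not separate evidence and cannot decide whether arrays were paired. The replicate number as a block drops control 3 from the difference and leaves few residual degrees of freedom. With that block 2692 probe sets, 16 of the pathway and 8 of the mesoderm markers passed, and fgfr2.L stood at 1.18 and 1.13. Dusp6.L then stood at -0.50 and passed (adjusted p = 0.0245, limma). After cyclic loess myod1.S (-0.0058) and sall1.L (-0.4543) changed sign. Spry2.L changed sign without control 1 (0.0054; -0.2774 to 0.0054 over all single arrays left out), and spry2.S without zic1 replicate 1 (0.0222) or control 1 (0.0392; -0.1461 to 0.0392 over all).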
